A study of Drosophila melanogaster with 2 samples.

Results

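The regions described here are the peaks of the Drosophila melanogaster GATA factor GATAd that lie at promoters where transcription leaves in 1 direction. Each comes from the authors' dm6 list of peaks that met their irreproducible discovery rate (IDR), which rates how alike 2 replicates rank the same peaks. Its summit is within 1 kb of the transcription start site (TSS) of a protein-coding gene, and every protein-coding gene with a TSS in that reach lies on the same strand. Of the 1205 IDR peaks, 435 met this rule (36.1%, Wilson 95% interval 33.4 to 38.9). Another 406 (33.7%) had TSSs of both strands in reach and are called divergent below, whatever the arrangement of those genes, and 364 (30.2%) lay over 1 kb from any such TSS. The rule used positions and strands alone, not the signal, the sequence or the side of the TSS. A place in the IDR list does not mean a high rank in each replicate's own list. Of the 435 peaks, 24 (5.52%) overlapped none of the top 1205 candidates of either replicate. No candidate was matched in replicate 2 for 8 peaks and in replicate 3 for 3. Of the 28795 weaker candidates that were called on the pooled replicates but are outside the IDR list, 5582 (19.4%) met it.

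The chromatin came from whole wandering larvae of the third instar, males and females together, of the fly line GATAd-GFP, which stably expresses GATAd with GFP at its C terminus. It was sonicated and precipitated with an antibody against GFP. The 2 samples, biological replicates 2 and 3 by their labels, form the only group, so no genotype, stage or tissue is compared. What drives the transgene is not given in the sources used here, and signal from whole larvae cannot be assigned to a tissue. Read depth is unknown. The peaks, called on 2 libraries, are not independent replicates, so intervals and p-values describe how many peaks were counted and not how much larvae vary.

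GATA factors are zinc finger proteins that bind short words built around GATA, and in flies members of the family direct gene programmes of the midgut, the fat body and the blood. Promoters of fly genes fall broadly into those that share their upstream DNA with a neighbour transcribed away from them, often housekeeping genes, and those that face a single way. At the first kind the DNA replication-related element (DRE) is a common core promoter word, bound by the factor DREF. At many developmental and inducible promoters runs of GA repeats are bound instead by GAGA factor, which opens chromatin there.

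The summit windows printed here show the words that the results below turn on. Each runs in the direction of transcription, from 100 bp before the summit to 100 bp after it or to the edge of an annotated UTR, with RefSeq's Release 6 sequence of the assembly that dm6 corresponds to. Capitals mark 3 words on either strand: the GATA word (AGATAA or AGATAG or TGATAA or TGATAG), DRE (TATCGATA) and the GAGA word (GAGAG), so that TTATCA and CTCTC are matches on the opposite strand. Matches may overlap and each is counted, and the GATA inside DRE follows a C, so that DRE is not by itself a GATA word. The scny and aralar1 windows show GAGA words at 2 of the strongest peaks, and MYPT-75D has the most matches of the 435.
scny (chr3L:5770923-5771123, plus strand): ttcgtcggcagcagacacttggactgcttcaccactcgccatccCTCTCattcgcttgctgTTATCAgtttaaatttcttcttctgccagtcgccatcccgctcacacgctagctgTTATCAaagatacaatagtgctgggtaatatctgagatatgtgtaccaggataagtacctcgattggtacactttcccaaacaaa
aralar1 (chr3R:30450428-30450628, minus strand): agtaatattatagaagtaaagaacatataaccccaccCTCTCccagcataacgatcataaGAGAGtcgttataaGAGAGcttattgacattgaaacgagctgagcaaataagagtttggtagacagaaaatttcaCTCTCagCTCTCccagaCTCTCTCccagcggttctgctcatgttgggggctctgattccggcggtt
MYPT-75D (chr3L:18640671-18640871, plus strand): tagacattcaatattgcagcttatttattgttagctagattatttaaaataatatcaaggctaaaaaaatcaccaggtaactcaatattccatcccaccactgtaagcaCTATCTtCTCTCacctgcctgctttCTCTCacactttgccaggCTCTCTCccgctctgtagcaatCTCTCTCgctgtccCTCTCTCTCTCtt
The Trp1 and Ptpmeg2 windows show a single GATA word at strong peaks, in both forms of its last letter.
Trp1 (chr2L:10010151-10010351, plus strand): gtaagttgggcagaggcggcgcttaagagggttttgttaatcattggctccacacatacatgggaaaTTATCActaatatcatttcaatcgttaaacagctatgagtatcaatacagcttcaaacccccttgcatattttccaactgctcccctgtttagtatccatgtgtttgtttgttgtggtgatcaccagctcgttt
Ptpmeg2 (chrX:9645986-9646186, minus strand): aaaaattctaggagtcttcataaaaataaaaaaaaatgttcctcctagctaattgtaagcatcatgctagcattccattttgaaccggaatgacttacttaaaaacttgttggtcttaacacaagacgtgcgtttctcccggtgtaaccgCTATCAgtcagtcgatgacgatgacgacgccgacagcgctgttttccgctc
The MEP-1 and CG7920 windows hold DRE and a GATA word together.
MEP-1 (chr3L:2631386-2631586, plus strand): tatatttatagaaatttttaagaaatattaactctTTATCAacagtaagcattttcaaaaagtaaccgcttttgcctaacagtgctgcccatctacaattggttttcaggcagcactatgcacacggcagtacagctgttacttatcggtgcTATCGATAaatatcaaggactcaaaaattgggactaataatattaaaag
CG7920 (chr3R:30015322-30015512, minus strand): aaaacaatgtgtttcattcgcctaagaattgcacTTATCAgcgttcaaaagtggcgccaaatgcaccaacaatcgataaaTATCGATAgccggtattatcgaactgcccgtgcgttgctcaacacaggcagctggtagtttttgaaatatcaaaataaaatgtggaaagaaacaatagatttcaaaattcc
The window of CG14100, the strongest of the 435 peaks, holds none of the 3 words.
CG14100 (chr3L:19590525-19590723, minus strand): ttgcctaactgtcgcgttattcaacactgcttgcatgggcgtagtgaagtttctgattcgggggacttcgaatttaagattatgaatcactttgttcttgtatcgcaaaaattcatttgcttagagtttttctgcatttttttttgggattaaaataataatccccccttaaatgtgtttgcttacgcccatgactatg

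Summits lay mostly upstream of the TSS. Of the 435, 342 (78.6%, Wilson 95% interval 74.5 to 82.2) were upstream of the nearest TSS and 93 were downstream. Among the weaker candidates at promoters of the same kind, 2870 of 5582 (51.4%, 50.1 to 52.7) were upstream. The difference was 27.2 percentage points (95% interval 22.9 to 31.0; two-sided Fisher's exact test, p = 1.15e-29). Candidates include background by design and were called on the same libraries. The windows of the IDR peaks were poorer in G and C (median 37.3% against 40.3% in the candidates), and within the lower GC range (windows up to the median of all IDR peaks) the difference was 14.05 percentage points (Fisher's exact test, p = 4.67e-05), while in the upper GC range it was 33.8.

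The upstream summits stood close to the TSS, at a median of 173 bp (quartiles 92 and 284 bp), against 352 bp for upstream candidates. The downstream ones spread farther, at a median of 488 bp (quartiles 126 and 766 bp), close to the 458 bp of downstream candidates. The stretch from 250 to 101 bp upstream alone held 141 of the 435 peaks (32.4%), against 10.9% of the candidates, and the 100 bp before the TSS held a further 98. The first 100 bp after it held 20. The median signal was 70.8 in the first of these stretches and ran from 54.9 to 67.7 in the others within 1 kb.

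**Figure D1:**
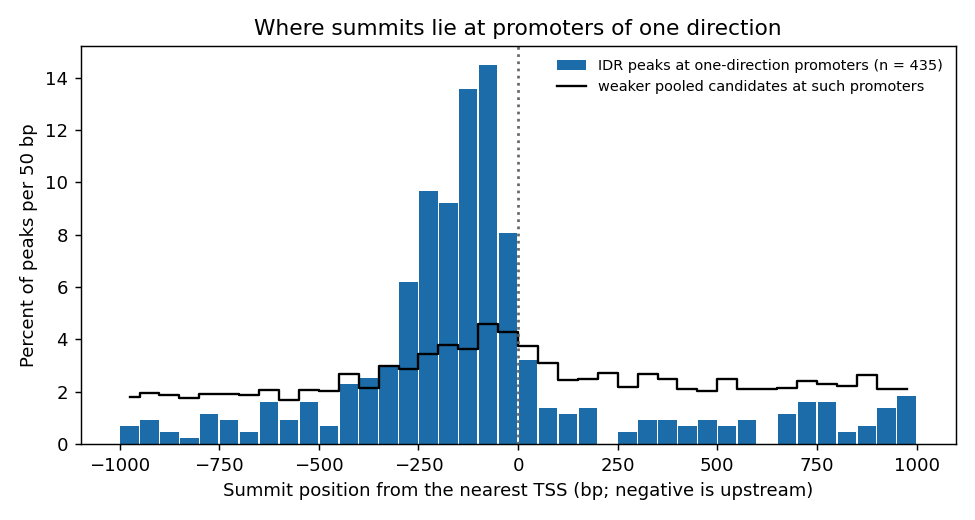
Percent of peaks per 50 bp against the position of the summit from the nearest TSS in bp, for the 435 peaks at one-direction promoters (bars) and the 5582 weaker candidates at such promoters (line). The bars are highest in the 250 bp before the TSS, and the line is flatter, with 51.4% of candidates upstream.

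Distance to a TSS also differs between the classes, but the rule fixes part of that. A divergent peak needs at least 2 TSSs within 1 kb and so has more chances of a near one, and the values are given as a description. Within 250 bp of a TSS were 270 of 435 summits (62.1%), against 387 of 406 (95.3%) at divergent promoters. The median distance was 194 bp, against 80.5 bp at divergent promoters and 404.5 bp in the weaker candidates at one-direction promoters.

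By annotation, 198 summits lay between genes, 174 in introns, 54 in 5' UTRs, 8 in 3' UTRs and 1 in a coding exon. A summit upstream of its nearest TSS can still lie inside the same gene where that gene has several starts. Of the 120 upstream summits in introns, 101 (84.2%, Wilson 95% interval 76.6 to 89.6) were in an intron of the gene whose TSS was nearest, upstream of an inner start. Of the 401 genes nearest to these peaks, 237 (59.1%, 54.2 to 63.8) had 2 or more annotated TSSs, against 179 of the 402 nearest to divergent peaks (44.5%, 39.7 to 49.4) and 3699 of all 13945 protein-coding genes (26.5%). A gene with more starts has more chances to lie near a peak, and the part of this in the shares was not tested. With only the 5' end of each gene counted, one-direction promoters held 28.4% of the IDR peaks.

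The nearest opposite-strand TSS of a protein-coding gene was within 20 kb for 380 of the 435 peaks, at a median of 4641.5 bp, and within 2 kb for 59 (13.6%). At 35 peaks (8.05%) a noncoding gene of the opposite strand started within 1 kb, which the rule allows. The peaks at Ndf, SCOT and BEAF-32 stood just inside the limit, with an opposite TSS 1011, 1019 and 1019 bp away. Those at CG31635, Adf1 and Camta, with one 1000, 988 and 978 bp away, were just outside. On the distance to the gene's own TSS, summits at Ndae1 and Gyg and another at CG31635 were the last inside, 999 bp downstream, 992 bp upstream and 987 bp downstream. Those of chif, CG11050 and Csk, at 1001, 1028 and 1033 bp, were the first outside. The CG11050 peak is the 2nd strongest of the whole IDR list with a signal of 492, so the limit decides its class.

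The authors' signal, whose scale is not stated and which was used to rank and describe peaks within a list, ran from 44.1 to 547 with a median of 64.2 and quartiles of 52.5 and 86.8. The median was 71.7 at divergent peaks and 61.5 at peaks over 1 kb from a TSS. Of the 435, 106 (24.4%) were among the 302 strongest of the IDR list, against 119 of 406 divergent peaks (29.3%), and this difference of -4.94 percentage points did not pass (95% interval -10.9 to 1.04; two-sided Fisher's exact test, p = 0.119). Leaving out a replicate put the top 1205 candidates of the other replicate's own list in place of the IDR peaks, with no IDR filter. Among those candidates the difference was -0.905 without replicate 2 and -9.21 without replicate 3. Each of these rests on a single library, so only its size is given, whether or not it passed. Among the IDR peaks, with only the 5' end of each gene, the difference was -6.80, which passed (two-sided Fisher's exact test, p = 0.0430). Upstream and downstream peaks had medians of 65.0 and 63.7.

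One-direction peaks stood in the top of both replicates less often than divergent ones. Of the 435, 228 (52.4%) overlapped, by 1 bp or more, a peak among the top 1205 of each replicate's own list, against 252 of 406 divergent peaks (62.1%). The difference was -9.66 percentage points (95% interval -16.2 to -2.96; two-sided Fisher's exact test, p = 0.00529). It came with replicate 3, whose top held 69.4% of the one-direction peaks and 81.0% of the divergent ones, while the top of replicate 2 held 77.5% and 77.3%. The call depended on the setting: it ended with noncoding genes counted in the same-strand rule (-6.82 percentage points, p = 0.0508) and in the upper GC range (-5.85, p = 0.291), both by Fisher's exact test. Among the 602 strongest IDR peaks it turned to 0.774 percentage points (Fisher's exact test, p = 0.880). By pooled signal, 97.2% of the strongest 109 of the 435 were in the top of both replicates. In the next groups of 109, 109 and 108 the shares were 78.9%, 32.1% and 0.926%. Divergent peaks had the higher median signal (71.7 against 64.2), and the part of signal in the difference was not tested.

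Of the 25 strongest peaks, 22 lay upstream of the nearest TSS. In CG14100, a gene known only by its number, the peak had a signal of 547 in the pooled list, 342 in replicate 2 and 210.3 in replicate 3, with its summit 99 bp upstream in intergenic sequence (3L, 19590467 to 19590765). At scrawny (scny), a histone ubiquitin protease gene, it had 437, 243 and 197, with its summit 142 bp upstream of an inner start, in an intron (3L, 5770879 to 5771124). Both were the first or 2nd of the 435 in the pooled list and high in both replicates. CG1888 had 392 in the pooled list, 277 in replicate 2 and 121 in replicate 3, 228 bp upstream of a TSS. Lk6, which encodes a kinase of the translation factor eIF4E, had 308, 171 and 139.8, and its summit lay 969 bp upstream of a TSS, near the limit of the rule. These 4 peaks were higher in the replicate 2 list than in that of replicate 3, as were 17 of the 25, but the lists need not share a scale.

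Peaks downstream of the TSS were led by GstE13, LPCAT and CG9663. GstE13, a glutathione transferase gene of detoxification, had 303 in the pooled list, 184 in replicate 2 and 123 in replicate 3, in its 5' UTR 67 bp past the TSS. LPCAT, which encodes a lysophosphatidylcholine acyltransferase that remodels membrane lipids, had 281, 184 and 103, in an intron 673 bp past the TSS (X, 9579173 to 9579394). CG9663 had 235, 141.8 and 100.3, in an intron 901 bp past the TSS. Other strong peaks lay upstream of genes of varied roles. They include the Polycomb group gene ph-p (265 in the pooled list, 467 bp upstream), the protein translocation gene Trp1 (245, 103 bp) and the mitochondrial aspartate-glutamate carrier gene aralar1 (239, 122 bp). The casein kinase gene gish had 226, 151 bp upstream, and the small heat shock protein gene Hsp27 had 189, 173 bp upstream. Hsp27 was the most uneven of the 25, with 61.6 in replicate 2 and 127.7 in replicate 3, a log2 ratio 1.25 above the median of all IDR peaks.

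**Figure D2:**
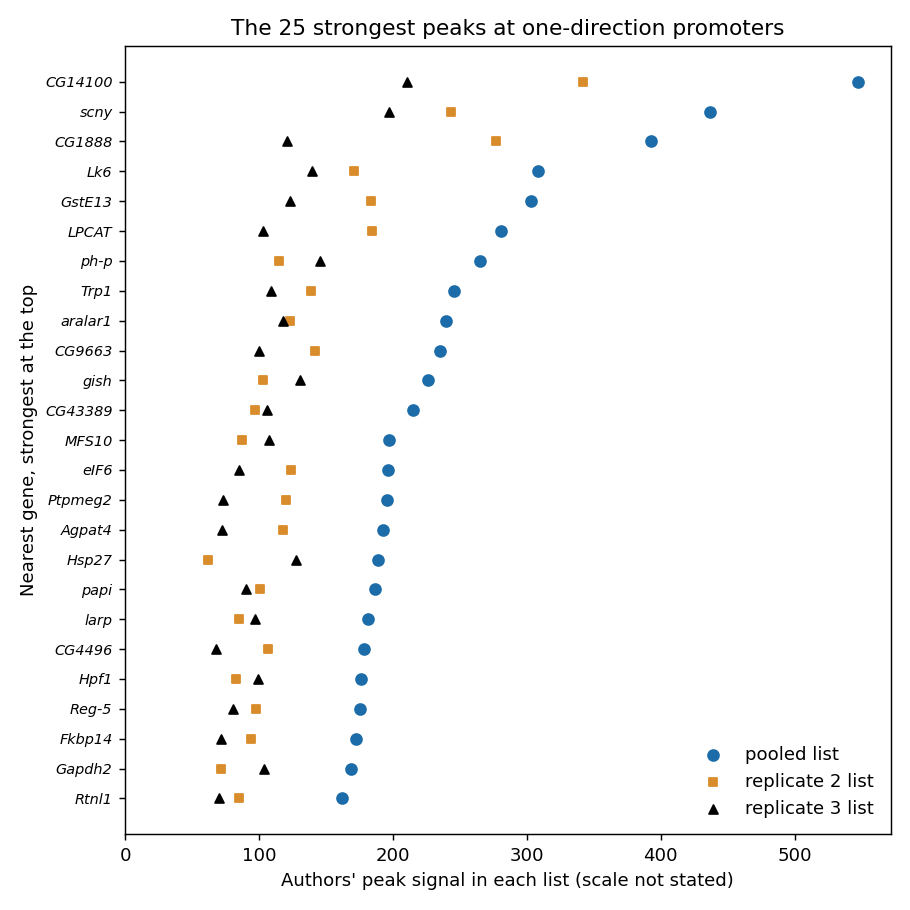
The authors' signal of the 25 strongest peaks at one-direction promoters in the pooled list (circles), the replicate 2 list (squares) and the replicate 3 list (triangles), by nearest gene, strongest at the top. CG14100 is highest in the pooled list at 547 and Rtnl1 closes the 25 at 162; each peak has a value in all 3 lists.

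Across the 435, replicate 2 had a matched candidate for 427, with signals from 9.64 to 342 and a median of 35.2. Replicate 3 had one for 432, from 7.55 to 210.3 with a median of 31.2. Over the 424 peaks with both, the log2 ratio between the lists, replicate 3 over replicate 2, varied with an SD of 0.79. More than 4-fold from the median were 7 of the 424, against 1 of 387 at divergent promoters, a difference that was not tested.

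The 5 most extreme ratios toward replicate 3 were at ph-p, CHES-1-like, tst, Btk and ldd, and those toward replicate 2 at wnd, Act5C, Maf1, sty and CG5953. Another ph-p peak, 450 bp downstream of a TSS (X, 2137729 to 2138112), had 12.02 in replicate 2 and 96.2 in replicate 3, a log2 ratio 3.20 above the median. CHES-1-like, a forkhead factor gene, had 10.4 and 53.6, and Btk, a non-receptor tyrosine kinase gene, had 10.8 and 45.9 in the same order. At tst the values were 10.1 in replicate 2 and 49.5 in replicate 3, and at ldd 9.64 and 36.9. These were above the median of 31.2 in replicate 3, ldd only a little, and near the bottom of the range in replicate 2. On the other side wnd, a kinase gene upstream of JNK signalling, had 70.7 in replicate 2 and 9.17 in replicate 3, a log2 ratio of -2.75 relative to the median. An actin gene, Act5C, had 43.3 and 7.55 at a peak 643 bp upstream of its TSS, but 30.2 and 29.5 at a peak 9 bp upstream of it. The receptor tyrosine kinase antagonist gene sty had 38.01 and 8.47, Maf1 had 38.07 and 8.37, and CG5953 had 49.1 and 12.4. A single library stands behind each value, so these ratios were not tested.

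**Figure D3:**
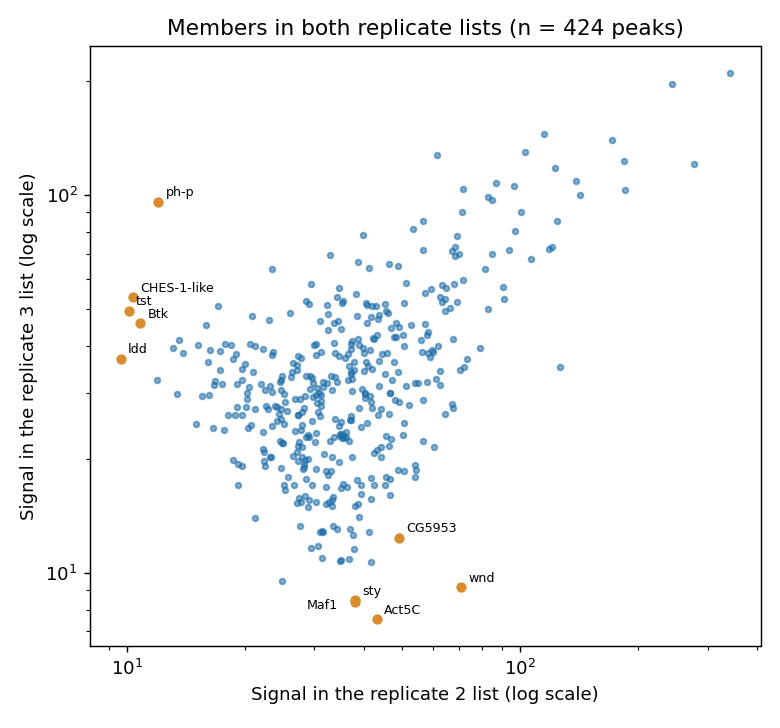
Signal in the replicate 3 list against signal in the replicate 2 list, both on log scales, for the 424 peaks at one-direction promoters matched in both; the 5 most extreme ratios on each side are labelled. The ph-p peak lies at 12.02 and 96.2, the wnd peak at 70.7 and 9.17.

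Several genes carried more than 1 of these peaks. There were 30 such genes with 64 peaks in all, and larp, which encodes an RNA-binding La-related protein, had 4. Its peaks had signals of 182, 68.0, 45.2 and 44.2. Ptpmeg2, a tyrosine phosphatase gene, had 3 peaks of 196, 93.0 and 92.6, all in introns. The insulin receptor gene InR had peaks of 94.3 and 60.6, 639 and 124 bp upstream of its starts, and BEAF-32, the gene of an insulator protein, had 62.3 and 52.2.

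GAGA words set one-direction peaks apart from divergent ones. GAGAG lay within 100 bp of the summit at 144 of 435 one-direction peaks (33.1%, Wilson 95% interval 28.8 to 37.7), against 56 of 406 divergent peaks (13.8%, 10.8 to 17.5). The difference was 19.3 percentage points (95% interval 13.7 to 24.8; two-sided Fisher's exact test, adjusted p = 9.48e-10 by Benjamini-Hochberg over 28 comparisons of 14 words). It passed in each of 12 alternatives, from 8.69 percentage points with words within 50 bp to 27.6 within 200 bp, and was 17.8 with summits within 250 bp of a TSS alone. Peaks over 1 kb from a TSS held the word in 28.6% of cases, and that difference did not pass (4.53 percentage points, 95% interval -1.92 to 10.9; Fisher's exact test, adjusted p = 0.298).

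A contrast in the same direction was present at TSSs across the genome. Of windows of the same 201 bp at the TSSs of genes without an opposite-strand TSS within 1 kb, 25.2% of 8804 held GAGAG, against 17.9% of 5141 at genes with one, and 22.5% of all 13945. Among the weaker candidates the shares were 22.1% at one-direction promoters and 15.8% of 1022 at divergent ones. The word was at 30.7% of one-direction peaks within 250 bp of a TSS and at 37.0% of those farther away. Its 309 matches had a median position of -115 bp from the TSS, and 251 (81.2%) were upstream. The search reached only 100 bp from the summits, 78.6% of which were upstream, so these positions follow the summits. Overlapping matches in 1 run were each counted. Peaks with and without the word had median signals of 67.0 and 63.7 and median GC contents of 38.8% and 36.3%. In the lower and the upper GC range the difference from divergent peaks was 13.6 and 22.6 percentage points (Fisher's exact test, adjusted p = 0.00616 and 7.01e-05).

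Examples with GAGA words are the windows printed above for aralar1, with 7 matches, and MYPT-75D, the gene of a myosin phosphatase subunit, with 10. The peak at aralar1 had a signal of 239 in the pooled list, 123 in replicate 2 and 117.9 in replicate 3, and that at MYPT-75D had 80.5, 32.4 and 51.1. GAGA factor is made by Trl, itself one of the genes here. Its peak lay in an intron 710 bp past a TSS, held the word, and had 47.2 in the pooled list, 18.6 in replicate 2 and 19.96 in replicate 3, near the weak end of the 435.

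**Figure D4:**
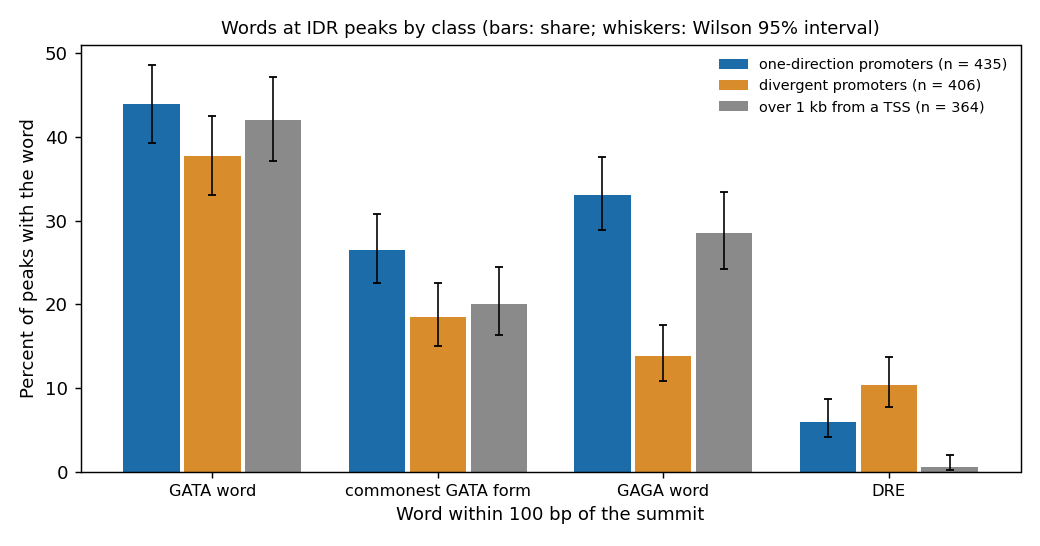
Percent of IDR peaks with each word within 100 bp of the summit at one-direction promoters (435), at divergent promoters (406) and over 1 kb from a TSS (364); bars are shares and whiskers Wilson 95% intervals. The commonest GATA form is the word with T first and A last. The GAGA word is at 33.1%, 13.8% and 28.6%, and its intervals at one-direction and divergent promoters do not overlap.

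Shares of the GATA word at one-direction peaks and elsewhere in the IDR list did not differ past the threshold. It lay at 191 of 435 (43.9%, Wilson 95% interval 39.3 to 48.6), against 153 of 406 divergent peaks (37.7%, 33.1 to 42.5) and 153 of 364 peaks over 1 kb from a TSS (42.0%, 37.1 to 47.2). Neither difference passed, with 6.22 percentage points from divergent peaks (95% interval -0.424 to 12.8; Fisher's exact test, adjusted p = 0.174) and 1.88 from the peaks far from a TSS (-5.01 to 8.71; Fisher's exact test, adjusted p = 0.750). With a reach of 500 bp the first did pass (9.45 percentage points, Fisher's exact test, adjusted p = 0.0467). The word was at 34.5% of the weaker candidates at one-direction promoters and at 30.9% of windows at all TSSs. The median GC content was 37.3% at the peaks, against 40.3% and 41.3% there, and the part of base composition in these shares was not tested.

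Of the 265 matches, 138 were TGATAA, 58 AGATAA, 41 AGATAG and 28 TGATAG. The first form alone was at 26.4% of one-direction peaks, 18.5% of divergent peaks and 20.1% of peaks over 1 kb from a TSS. These differences did not pass either (7.96 and 6.38 percentage points; Fisher's exact test, adjusted p = 0.0600 and 0.125). Most peaks had no match or 1: 244 had 0, 135 had 1, 42 had 2, 11 had 3, 2 had 4 and 1 had 5. On the strand of transcription were 143 matches (54.0%, Wilson 95% interval 47.9 to 59.9), so no preferred strand was detectable. The interval treats each match as independent, although some peaks held several, so it can be too narrow. Relative to the TSS the matches had a median position of -139.5 bp, and 149 (56.2%) lay within 50 bp of the summit. Both values are bounded by the search, which reached only 100 bp on each side of the summit. Whether the matches gather at summits was not tested.

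Peaks with and without a GATA word were close to each other in the other measures. They had median signals of 63.5 and 64.9, lay upstream in 77.0% and 79.9% of cases, and had median distances of 194 and 194.5 bp. Its share was 40.4% in the strongest 109 of the 435 and 45.0%, 45.9% and 44.4% in the next 3 groups of that size or 1 fewer. Upstream peaks held it in 43.0% of cases and downstream peaks in 47.3%.

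DRE was rare at these peaks but more frequent than far from promoters. It was at 26 of 435 (5.98%, Wilson 95% interval 4.11 to 8.61), against 42 of 406 divergent peaks (10.3%) and 2 of 364 peaks over 1 kb from a TSS (0.549%). The difference of 5.43 percentage points from the peaks far from a TSS passed (95% interval 3.08 to 8.09; Fisher's exact test, adjusted p = 0.000138), and that of -4.37 from divergent peaks did not (-8.20 to -0.665; Fisher's exact test, adjusted p = 0.102). The second passed in 4 of 12 alternatives, the largest being -9.26 percentage points with words within 200 bp (Fisher's exact test, adjusted p = 0.000998). At all TSS windows the share was 7.84%, with 4.93% at genes without an opposite-strand TSS and 12.8% at genes with one.

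Peaks with DRE lay close to the TSS, at a median of 96.5 bp against 197 bp for those without. Within 250 bp of a TSS 8.52% had the word and farther away 1.82%. Of its 30 matches 27 were upstream of the TSS, at a median position of -63 bp. These positions too are bounded by the search within 100 bp of the summit. The highest signal with DRE was at eIF6, the gene of a factor that keeps ribosomal subunits apart, with 197 in the pooled list, 124 in replicate 2 and 85.4 in replicate 3, 92 bp upstream. MEP-1, whose protein acts in chromatin complexes, had 112, 41.3 and 64.3, and CG7920 had 97.5, 61.9 and 39.8. All 3 translation factor genes named below with a peak held DRE. The word and the GATA word occurred together at 15 peaks, DRE and GAGAG at 3, and GAGAG and the GATA word at 70, while 160 of the 435 held none of the 3. Of all 14 words compared, GAGAG alone passed against divergent peaks and DRE alone against peaks far from a TSS, where 4 and 5 comparisons had an unadjusted Fisher's exact p under 0.05.

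The 435 peaks had 401 nearest genes, and 418 genes had a TSS within 1 kb of one, which is 3.00% of the 13945 protein-coding genes; 816 genes (5.85%) had a divergent peak. RefSeq gives a description for 262 of the 401, and 109 are named only by number. At 16 peaks 2 or more genes of the same strand were in reach, the most at pug, with CG14683 and CG46459. Across 29 lists of genes by function, 53 of 1364 genes had a one-direction peak. Counts per list are small and are given against these shares of all genes, without a test. Each list is a selection, so its count covers only the genes put on it and not every gene of that function.

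Of lipid synthesis and storage genes, 6 of 35 (17.1%) had a one-direction peak, against 2 of 35 with a divergent peak. The 6 are LPCAT, Agpat4, Lpin, Acsf2, mino and mdy. Agpat4, an acyltransferase that makes phosphatidic acid, had a signal of 193 in the pooled list, 118 in replicate 2 and 72.1 in replicate 3, 144 bp upstream of its TSS (3L, 16381621 to 16381810). Lpin, the phosphatase that turns phosphatidic acid into diacylglycerol, had 137, 67.0 and 71.3, in an intron 258 bp upstream of a start. Acsf2, an acyl-CoA synthetase family member, had 80.7, 29.0 and 51.4. These 3 were seen in both replicates, with values that did not favour the same one. The glycerol-3-phosphate acyltransferase gene mino had 59.7, 43.2 and 21.2, and mdy, the diacylglycerol acyltransferase that completes triglycerides, had 50.5, 20.1 and 27.5. Of the 6 peaks, 5 were upstream and 4 held a GATA word. At a reach of 1 kb this was the highest share of the 29 lists. At a reach of 250 bp, where 3.08% of all genes had a one-direction peak, lipid genes had 3 of 35 (8.57%), below the kinases and phosphatases of other pathways, with 5 of 30 (16.7%), and the insulin and TOR genes, with 3 of 29 (10.3%). The ecdysone response and the glycolysis and TCA cycle lists, each with 3 of 30, were above it as well.

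Insulin and TOR signalling genes had 4 of 29 (13.8%) with a one-direction peak and 0 with a divergent one. They are Lk6, InR, Sesn and Thor. At the insulin receptor gene InR the stronger peak had 94.3 in the pooled list, 62.4 in replicate 2 and 31.5 in replicate 3. Sesn, the sestrin gene, an inhibitor of TOR, had 94.0, 67.4 and 27.4, and Thor, the translation repressor 4E-BP, had 56.2, 41.7 and 10.7. All 3 were higher in the replicate 2 list, Thor most of all, with a log2 ratio of -1.77 relative to the median. All 5 peaks of the list lay upstream of the nearest TSS, and 2 held a GATA word.

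Stress and hormone genes had 3 members each. In JNK signalling and apoptosis, 3 of 27 (11.1%) had a peak, at wnd, the caspase inhibitor gene Diap1 and its antagonist hid. Diap1 had 64.8 in the pooled list and 43.0 in replicate 3, with no matched candidate in replicate 2. Its antagonist hid had 46.1, 13.4 and 29.7. Of ecdysone response genes 3 of 30 had one, at E23, hid and Eip75B, all upstream and all weak, with pooled signals from 44.2 to 46.1. In the carbohydrate list, 3 of 30 genes of glycolysis and the TCA cycle had a one-direction peak and 4 a divergent one. There Gapdh2, of glycolysis, had 169 in the pooled list, 71.4 in replicate 2 and 103.8 in replicate 3. Ldh, lactate dehydrogenase, had 85.2, 42.4 and 41.6, and Hex-A, hexokinase, 60.0, 24.9 and 22.1. Each of the 3 lay within 300 bp upstream of its TSS.

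The chromatin, kinase and cytoskeleton lists had small counts, with shares above the 3.00% of all genes at a reach of 1 kb. Chromatin and Polycomb group genes had 4 of 52 (7.69%) with a one-direction peak, at ph-p, ph-d, BEAF-32 and Trl, and 8 with a divergent one. At a reach of 250 bp they had 1 of 52 (1.92%), against 3.08% of all genes. The ph-p and ph-d genes are neighbouring, similar copies of the same Polycomb subunit, and how the authors placed reads that match both is not stated. Kinases and phosphatases of other pathways had 3 of 30 (10%), at gish, sgg, the GSK3 kinase of Wnt signalling, and CkIalpha, also a Wnt kinase. In that list 4 (13.3%) had a divergent peak. Cytoskeleton genes had 3 of 41 (7.32%), at Moe, Act5C and jar, and 4 (9.76%) with a divergent peak. Close to the share of all genes, the list of midgut digestive enzymes had 1 of 41 (2.44%) and that of Hox and homeobox factors 1 of 32 (3.1%). The first is the maltase gene Mal-A5, with 93.9 in the pooled list, 50.8 in replicate 2 and 39.9 in replicate 3. The other, lab, which patterns the midgut, had 84.7, 47.9 and 36.2. Both peaks were upstream of the TSS and held a GATA word. The list of Hox and homeobox factors is not complete. The homeobox genes tin, NK7.1 and C15 are outside it and had one-direction peaks, with signals of 49.2, 47.4 and 45.5.

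In several lists of housekeeping genes more members had a divergent than a one-direction peak. That was also so for all genes, with 816 (5.85%) against 418 (3.00%). By the rule a divergent peak has genes of both strands in reach, while 419 of the 435 one-direction peaks had 1 gene in reach. Cytoplasmic ribosomal protein genes had 3 of 93 with a one-direction peak (3.23%), at RpL23A, RpS3A and RpS10b, and 18 with a divergent one (19.4%). The vesicle traffic list had 0 of 100 and 17 of 100, and the mitochondrial ribosomal protein genes 0 of 73 and 12 of 73. The genes ergic53 and Rme-8 are not on the vesicle traffic list and had one-direction peaks, with signals of 82.7 and 75.2. For aminoacyl-tRNA synthetases the counts were 0 and 6 of 34, for splicing factors 0 and 5 of 33, and for RNA polymerase subunits 0 and 3 of 31. The proteasome had 0 and 2 of 48 (4.17% divergent, against 5.85% of all genes), the vacuolar ATPase 2 and 3 of 33, and translation factors 3 and 2 of 54. These counts were not tested. An opposite-strand TSS lay within 1 kb of a TSS for 79.5% of mitochondrial ribosomal, 60.2% of cytoplasmic ribosomal, 87.9% of splicing factor and 60.0% of vesicle traffic genes, against 36.9% of all genes. For lipid genes it was 45.7% and for insulin and TOR genes 34.5%. The part of this in the counts was not tested. The cytoplasmic ribosomal share depended on the reach: at 250 bp, 7 of 93 (7.53%) had a one-direction peak, against 3.08% of all genes, and 3 of 73 mitochondrial ribosomal genes (4.11%) had one.

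Of the other lists, 5 had shares between 5.41% and 6.90%: EGFR, Ras and MAPK signalling had 2 of 29, Toll signalling and immune peptides 2 of 32, the vacuolar ATPase 2 of 33, translation factors 3 of 54 and chaperones 2 of 37. Oxidative phosphorylation had 3 of 87, at Cyt-c-p, SdhA and ND-B22, against 8 with a divergent peak. The 3 translation factor genes are eIF6, eIF2A and eEF1gamma. Cuticle protein genes had 0 of 122 in either class, and the 6 genes of GATA factors and their cofactor had 0 in either class. Neighbouring genes can share a peak, so the members of a list are not independent.

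**Figure D5:**
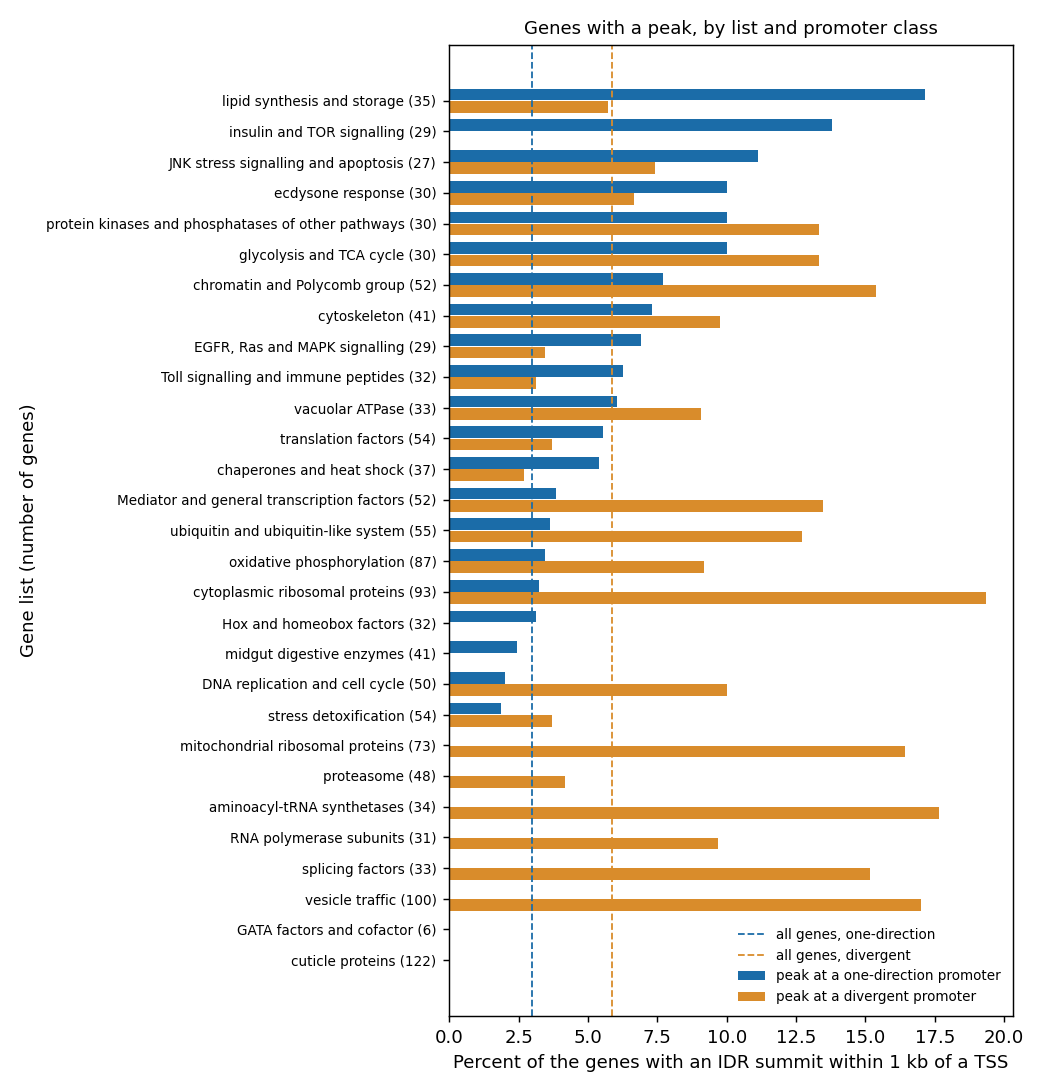
Percent of the genes of each of 29 lists that have an IDR peak in reach of a TSS at a one-direction promoter (blue) and at a divergent promoter (orange), with the number of genes in parentheses; dashed lines are the shares of all 13945 genes, 3.00% and 5.85%. Lipid and insulin lists have the longest blue bars, 17.1% and 13.8%, and the cytoplasmic ribosomal list the longest orange one, 19.4%.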

How the data were processed

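GATAd-GFP chromatin immunoprecipitation was measured in 2 larval samples. Per the deposited file records, the authors called 30000 candidates on each replicate and on the pool, against a control (not analysed here), and derived the IDR list of 1205 from these. The deposited signal (column 7) is the authors' enrichment value, of unstated scale. Neither aligner nor caller, nor any IDR cutoff, is named in the sources used here, and read depth is unknown. Of the lists, the 4 on dm6 were used and those on dm3 were not.

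Summits were set against protein-coding TSSs of Ensembl release 115, and words were searched on both strands in 201 bp of RefSeq's Release 6 sequence with Python 3.11.15 (scipy 1.17.1, pandas 2.3.3). No pooled candidate ran past the end of an arm. Replicate values are those of the overlapping candidate with the nearest summit. Shares have Wilson 95% intervals, and classes were compared with two-sided Fisher's exact tests at 0.05, tested on simulated data. Word comparisons were adjusted by Benjamini-Hochberg. Named genes are those of the 25 strongest peaks, the strongest of each list, of each word and of each replicate ratio, genes with several peaks, and those at the limits of the rule; MYPT-75D was added after its values were seen. The 435 members, the words and the gene lists were chosen with earlier results of these data known. Alternatives changed the TSSs counted, the distance, the peaks, the replicates and the window for words; those by GC content (lower and upper range, split at the median of all IDR windows) and by summits within 250 bp were added after seeing the data.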

Additional observations from a re-analysis of the deposited data

How the results depend on the processing

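Of 106 alternatives to the main results, 82 kept their direction and their side of the threshold, among them all of the upstream share and of the strand of the GATA word. The share of IDR peaks at one-direction promoters was 33.2% with noncoding genes counted in the rule and likewise 33.2% with a reach of 500 bp, 28.4% with only the 5' end of each gene, and 31.2% with no opposite-strand TSS within 2 kb. Differences below are one-direction minus the other class, in percentage points, with Fisher's exact tests. The share in the top of both replicates was -6.82 with noncoding genes and -5.85 in the upper GC range, both past the threshold before and not then, and 0.774 among the 602 strongest. The share among the 302 strongest passed with only 5' ends (-6.80). Leaving out a replicate, here and below, used the top 1205 candidates of the other replicate's list in place of the IDR peaks. For the 302 strongest it gave -0.905 without replicate 2 and -9.21 without replicate 3, each from a single library and given as a size only. For DRE against divergent peaks the call was made with noncoding genes (-5.41) and words within 200 bp (-9.26), and leaving out a replicate gave -5.89 and -5.60. Against peaks over 1 kb from a TSS DRE lost its call among the 602 strongest (5.06), with words within 50 bp (2.44) and in the upper GC range (4.23). The GATA word passed against divergent peaks with a reach of 500 bp (9.45), as did TGATAA (10.2), and turned to -0.164 with words within 200 bp. Against peaks over 1 kb from a TSS it turned to -0.0710 with only 5' ends, -3.20 among the 602 strongest, -0.212 with words within 50 bp and -2.28 in the lower GC range, and without a replicate to -3.25 and -0.142. GAGAG against those peaks turned to -4.06 with only 5' ends and -0.214 at 500 bp. Over the alternatives between 1 and 5 of the 14 words passed against divergent peaks and between 0 and 3 against those over 1 kb from a TSS. The cause of these changes was not tested. Top-of-both values have no form without a replicate. No paired analysis was possible because there is 1 group. Depth is unknown, so what it limits cannot be stated.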
